A study of Homo sapiens with 6 samples.

Results

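The regions described here are the accessible sites at the human antibody gene loci: all summits that lie in a window on chromosome 14 around the heavy chain locus IGH (chr14:105500000-106900000), on chromosome 2 around the kappa light chain locus IGK (chr2:88800000-90300000) or on chromosome 22 around the lambda light chain locus IGL (chr22:22000000-23000000), in hg38 coordinates. A summit is the base where the authors' peak caller placed the maximum of a peak. Summits of all libraries closer together than 250 bp were chained into 1 region. This gave 150 regions in the 3 windows, 77 at IGH, 12 at IGK and 61 at IGL, out of 100513 regions over chromosomes 1 to 22 and X. The windows span 3.9 Mb, and 408 summits fell in them over the 6 libraries.

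The libraries come from GM12878, an established lymphoblastoid line, that is, B cells immortalised with Epstein-Barr virus; the labels give a passage below 10. Chromatin accessibility was read with Tn5 transposase, by InTAC-seq in fixed and sorted cells. 3 groups of 2 libraries were compared: cells sorted for high H3K27ac (an acetylated histone mark of active promoters and enhancers), cells sorted for low H3K27ac, and a live, unsorted control. Sorted cells were fixed with paraformaldehyde, permeabilised, stained and gated for size, viability and the mark, and their crosslinks were reversed after transposition, whereas the labels' protocols describe live samples as fresh cells whose DNA was purified directly, so fixation, staining, sorting and crosslink reversal cannot be told apart between sorted and live libraries. The labels also attach the protocol with fixation and staining to the live samples, so whether the live cells were fixed is not settled, and every sorted-against-live value below carries that doubt. The staining protocol names the antibody's target as H3K37ac, while the sample names give H3K27ac. Each replicate held 50000 cells split from a counted pool, and p-values measure only the spread between such replicates, which may be technical. No agent other than these steps is named for any group.

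The lists differed in length, from 25627 regions in the first H3K27ac-high library to 72284 in the second live library, and sequencing depth was not given in the sources used here. For comparisons between libraries, each library's regions were ranked by score and the best 25627 were kept, called its best list below; the score of the last region kept ranged from 2.04 to 18.2, so the lists were cut at very different scores. B cell identity was checked at gene ends: 5 to 7 of 10 B cell markers had a best region within 1 kb in each library, with CD79B, MS4A1, EBF1 and POU2AF1 open in all 6. T cell markers were open at 1 to 3 of 8, with CD3E open in all 6 libraries, and none of 8 myeloid and none of 8 erythroid markers was open in any library.

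Antibody genes are assembled in B cells by V(D)J recombination, which joins 1 variable (V), for heavy chains 1 diversity (D), and 1 joining (J) segment upstream of the constant (C) genes, and on a rearranged chromosome the DNA between joined segments is lost or inverted. Each V segment has its own promoter, with an octamer element that binds OCT factors, on the side away from J and C, and a recombination signal with a CACAGTG-type heptamer on the side that faces J and C. Known enhancers include elements between IGHM and the J segments (the intronic enhancer) and downstream of IGHA1 and IGHA2 (the 3′ regulatory regions). Others lie between IGKC and the kappa J segments and downstream of the last lambda constant gene. The list is not complete, and the 50 kb beyond IGKC were examined as well. Which segments are joined in GM12878 was not analysed here.

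Promoter sequence was at hand for 27 lncRNA and protein-coding genes of the windows, in 36 promoter stretches of 300 bases (250 before and 50 after the start, from RefSeq, GRCh38.p14), but not for V segments. 7 of the 36 stretches held a summit. Shown are 3 of these, with summits of 5, 4 and 2 libraries, beside the promoter of VPREB1, a gene of the B lineage with no summit; capitals mark matches to 1 of 8 motifs, on either strand.
LOC124903399: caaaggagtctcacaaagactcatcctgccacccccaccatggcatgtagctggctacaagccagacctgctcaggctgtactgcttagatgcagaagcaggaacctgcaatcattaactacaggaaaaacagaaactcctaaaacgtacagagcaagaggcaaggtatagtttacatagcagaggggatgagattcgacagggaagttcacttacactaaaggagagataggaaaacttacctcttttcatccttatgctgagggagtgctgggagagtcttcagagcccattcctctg
LOC105372952: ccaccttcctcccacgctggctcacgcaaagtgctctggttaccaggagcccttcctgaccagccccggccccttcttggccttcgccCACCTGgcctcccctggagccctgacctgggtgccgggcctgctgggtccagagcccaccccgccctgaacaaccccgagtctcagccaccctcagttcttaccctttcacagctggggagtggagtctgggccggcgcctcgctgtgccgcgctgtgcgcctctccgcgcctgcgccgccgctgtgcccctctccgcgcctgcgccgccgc
PRAME: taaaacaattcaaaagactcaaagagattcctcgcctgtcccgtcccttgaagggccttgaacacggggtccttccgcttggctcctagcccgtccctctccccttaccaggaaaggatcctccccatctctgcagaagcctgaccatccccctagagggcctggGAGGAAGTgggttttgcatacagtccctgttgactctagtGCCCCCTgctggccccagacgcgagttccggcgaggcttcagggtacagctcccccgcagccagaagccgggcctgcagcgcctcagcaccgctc
VPREB1: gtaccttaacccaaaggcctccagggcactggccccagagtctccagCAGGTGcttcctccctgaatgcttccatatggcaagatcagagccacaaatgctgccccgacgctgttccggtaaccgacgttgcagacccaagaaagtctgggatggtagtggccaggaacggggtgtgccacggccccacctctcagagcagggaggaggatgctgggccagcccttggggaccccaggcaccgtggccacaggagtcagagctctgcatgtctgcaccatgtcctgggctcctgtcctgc
The LOC124903399 promoter (a lncRNA at the distal end of IGH, chr14:106845561-106845860, plus strand) held summits of 5 libraries at bases 13 to 78 and none of the motifs. The LOC105372952 promoter (a lncRNA within IGL, chr22:22298103-22298402, minus strand) held summits of 4 libraries at bases 181 to 228 and an E-box at base 89. The PRAME promoter (a tumour antigen gene within the lambda V array, chr22:22559216-22559515, minus strand) held summits of both live libraries, at bases 244 and 271, and of no sorted library, with a PU.1 match at base 166 and a CTCF match at base 206. The regions at these promoters were found in full lists only and in no best list. VPREB1 encodes part of the surrogate light chain of precursor B cells; its promoter (chr22:22244536-22244835, plus strand) has an E-box at base 48, and the nearest region lay 34315 bp from the gene.

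The motifs searched, with the share of all 35116 RefSeq promoter stretches of the same length that hold each, were the octamer ATGCAAAT (1.77%), the E-box CAGGTG (20.6%), PU.1 GAGGAAGT (2.59%), NF-kB GGGACTTTC (0.387%), AP-1 TGANTCA (7.71%), CTCF AGGGGGC (14.4%), RUNX TGTGGT (13.1%) and the recombination heptamer CACAGTG (5.36%). Several of the 36 stretches in the windows overlap each other, and 14 of them held the E-box, 10 the CTCF letters and none the octamer.

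Accessible regions were unevenly spread over the 3 loci. Over all lists together, IGH held 55.0 regions per Mb and IGL 61.0, whereas IGK held 8.0, against 34.1 per Mb over all chromosomes. In the order H3K27ac-high 1 and 2, H3K27ac-low 1 and 2, live 1 and 2, IGH had 11, 28, 23, 37, 52 and 56 regions. IGL had 6, 26, 20, 33, 43 and 47. IGK had 0, 3, 1, 2, 9 and 10. At each locus the live libraries held the most regions and the first H3K27ac-high library the fewest; at IGH and IGL the 6 counts followed the order of the list lengths.

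**Figure D1:**
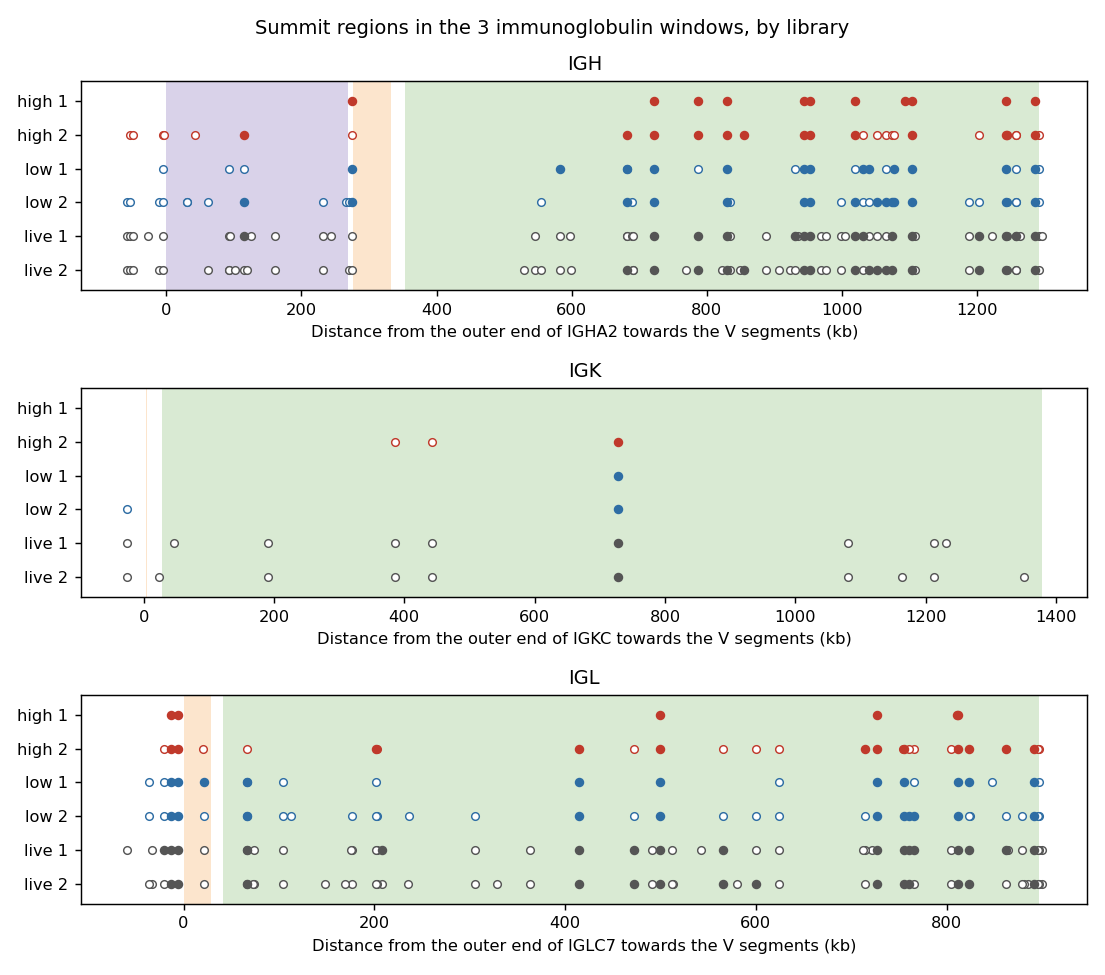
Position of every region at IGH, IGK and IGL by library; the x axis is the distance in kb from the outer end of IGHA2, IGKC or IGLC7 towards the V segments, and rows are libraries. Filled points are in the library's best list and open points are not; shading marks the V span (green), the D and J span of IGH, J span of IGK or J and C span of IGL (orange) and the other constant genes of IGH (purple). The IGK row of the first H3K27ac-high library is empty, and no library has a point in the D and J span of IGH.

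At IGH, 52 of the 77 regions lay in the V span and 6 of these were in all 6 best lists. The best ranked was chr14:106539888-106539979, which lies 1662 bp from IGHV3-48 on the side away from J and C. It ranked 3807 and 2513 in the H3K27ac-high libraries, 3217 and 3670 in the H3K27ac-low libraries, and 742 and 577 in the live libraries (rank 1 is the best score). Both live libraries thus placed it ahead of all 4 sorted ones. 4 of the other 5 lay beside IGHVIII pseudogenes, a family of V relics that encode no antibody. The region 353 bp from IGHVIII-26-1 (chr14:106309052-106309171) had ranks 6702 and 2516 (high), 1864 and 1994 (low), 6913 and 5618 (live). The region 143 bp from IGHVIII-38-1 (chr14:106417755-106417875) had ranks 2237 and 3467 (high), 5204 and 5438 (low), 4819 and 3424 (live). The former was ahead in both low libraries over both high ones, the latter in both high libraries over both low ones.

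The region 744 bp from IGHVIII-67-3 (chr14:106691813-106692040) had ranks 20212 and 11142 (high), 7564 and 5158 (low), 12367 and 16868 (live). The region 838 bp from IGHVIII-76-1 (chr14:106830813-106830925) had ranks 16750 and 5784 (high), 4847 and 4823 (low), 3514 and 7509 (live). At both, the low libraries lay ahead of the high ones. The sixth region, 3 bp from the pseudogene IGHV4-80 (chr14:106872721-106872799), ranked 18023 and 24968, 21762 and 18550, and 16031 and 12446 in the same order, near the end of the best lists in the second high library.

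The intronic enhancer interval of IGH, between IGHM and the J segments, held a region in every library. It spans chr14:105862112-105862238 and lies 958 bp from IGHJ6. Its ranks were 8635 and 34500 (high), 16295 and 10880 (low), 39985 and 32987 (live). It was in the best lists of 3 sorted libraries and of neither live library, and the high libraries lay on either side of the low ones. Downstream of IGHA1, chr14:105701106-105701131 was absent from the first high library and ranked 24337 in the second; its ranks were 28146 and 16933 (low), 17185 and 31988 (live). Downstream of IGHA2, chr14:105582065-105582180 was found in 5 libraries and in no best list, with ranks between 27285 and 39560. The region near IGHA1 was thus in 1 best list of each group, and the one near IGHA2 in none.

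From the intronic enhancer region across the D and J segments and into the nearest part of the V array, IGH held a stretch of 254 kb with no summit in any library (from chr14:105862238 to chr14:106116617). It contains 50 antibody gene segments, 14 V, 27 D and 9 J. Also in it are the lncRNA gene FAM30A and the entries ADAM6 and RPS8P1, which are not among the lncRNA or protein-coding genes. Over all chromosomes, 0.761% of the gaps between neighbouring regions were at least as long, and the median gap was 12.7 kb.

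At IGL, the best single rank belonged to a region beyond the constant genes, where the lambda enhancer is known to lie, and a neighbouring region there was also in all 6 best lists. The region 5920 bp beyond IGLC7 (chr22:22928833-22928863) had ranks 1704 and 3427 (high), 3209 and 1339 (low), 371 and 546 (live). The region 12893 bp beyond IGLC7 (chr22:22935762-22935806) had ranks 5884 and 1988 (high), 1524 and 1436 (low), 2515 and 3781 (live). The former was ahead in both live libraries over all sorted ones, and the latter in the low libraries over the high ones.

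The other regions of IGL in all 6 best lists lay in the V span. The region chr22:22111090-22111152, 11923 bp from IGLV8-61, had ranks 5128 and 10125 (high), 4954 and 5307 (low), 1360 and 3551 (live). The region chr22:22195574-22195701 lies 192 bp from IGLV6-57, a V segment not annotated as a pseudogene (functional below), and had ranks 12751 and 14577 (high), 10237 and 5419 (low), 9139 and 9561 (live). The region chr22:22422893-22422974, 3095 bp from IGLVI-38, had ranks 24040 and 14225 (high), 11038 and 14594 (low), 4063 and 6641 (live). The first and the last of these were ahead in both live libraries, and the one near IGLV6-57 in the low over the high libraries. Within the J and C span, the best ranked region (chr22:22901661-22902187, 366 bp from IGLC2) was in 4 full lists and in the best list of 1 library, the first H3K27ac-low one.

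**Figure D2:**
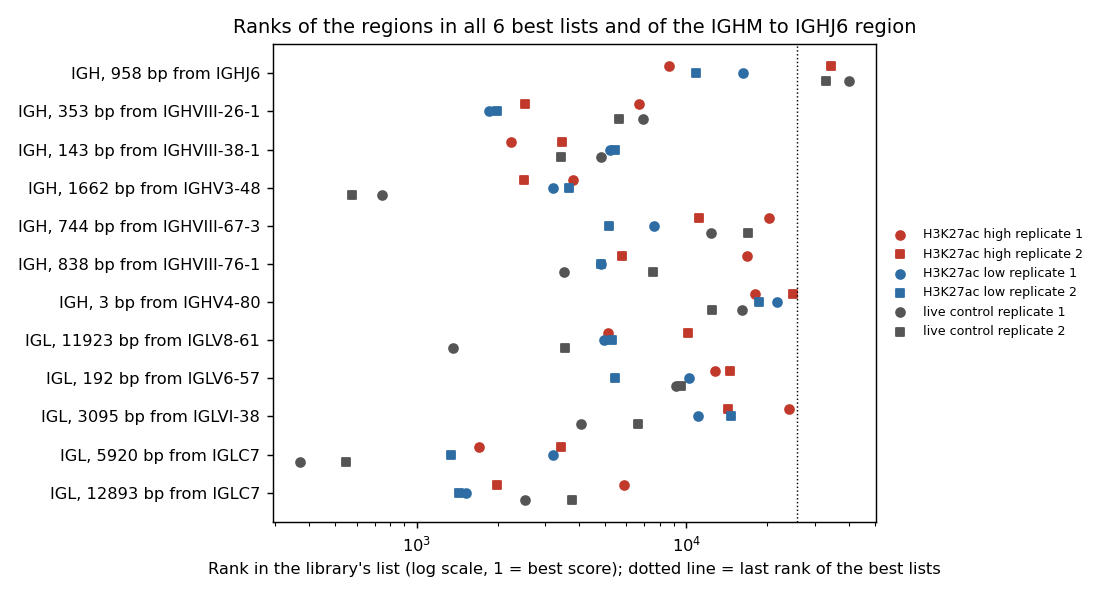
Ranks on a log axis (lower is better) of the 11 regions in all 6 best lists and of the region between IGHM and IGHJ6, by library; colour is the group and shape the replicate, and the dotted line is rank 25627, the last of the best lists. The live libraries are leftmost for the regions near IGHV3-48, IGLV8-61, IGLVI-38, IGHV4-80 and the nearer one beyond IGLC7, and rightmost with 1 high library for the region near IGHJ6.

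IGK was nearly empty. 1 of its 12 regions was in a best list, chr2:89585730-89585746, which lies 255304 bp from the nearest kappa V segment, in the gap between the proximal and distal V clusters. The nearest annotated entry other than a segment, LOC107985911, lies 68 bp from this region. The region was absent from the first H3K27ac-high library and ranked 15177 in the second. Its ranks were 21976 and 21669 (low), 11716 and 8953 (live). No library had a summit in IGKC, in the enhancer interval between IGKC and the kappa J segments, or in the J span. Beyond IGKC, a region 25516 bp away (chr2:88831845-88831900) was in no best list. Its nearest annotated entry other than the segments and IGKC was IGKDEL, 377 bp away. This region ranked 28894 in the second low library and 42374 and 34778 in the live libraries, and was absent elsewhere. The longest stretch with no summit was 353 kb, and 2 of 44 functional kappa V segments had a region within 1 kb, against 14 of 48 at IGH and 16 of 37 at IGL. The kappa V clusters are nearly identical copies of each other, where a short read can match both. How multiply matching reads were treated is not given in the sources used here, and its part in this result was not tested.

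Many regions sat beside V segments, but on opposite sides of them at IGH and IGL. At IGH, 34 of the 52 V-span regions (65.4%) lay within 300 bp of a V segment, where 13.2% of the V span's bases lie. Of these 34, 25 were on the side that faces D, J and C, 4 on the other side and 5 inside a segment. At IGL, 23 of the 50 V-span regions (46.0%) lay within 300 bp, against 8.87% of the bases. Here 4 faced J and C, 15 were on the side of the V promoter and 4 lay inside a segment. The sides were read from the standard orientation of the loci, since the gene table used gives no strand, and kappa segments, which run in both orientations, were given no side. Regions are not replicates, and the difference between the loci was not tested.

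The same sides prevailed in each library. From the first high to the second live library, 4, 10, 8, 13, 21 and 22 regions of IGH faced D, J and C against 0, 2, 2, 3, 3 and 2 on the other side. For IGL the counts were 0, 2, 1, 2, 4 and 3 facing J and C against 1, 6, 5, 9, 10 and 10 on the promoter side. The libraries share regions, so these counts repeat each other in part. At IGH the side that faces D, J and C held 11 of 15 such regions at functional V segments and 14 of 19 at V pseudogenes. At IGL the promoter side held 12 of 15 at functional segments and 3 of 8 at pseudogenes.

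**Figure D3:**
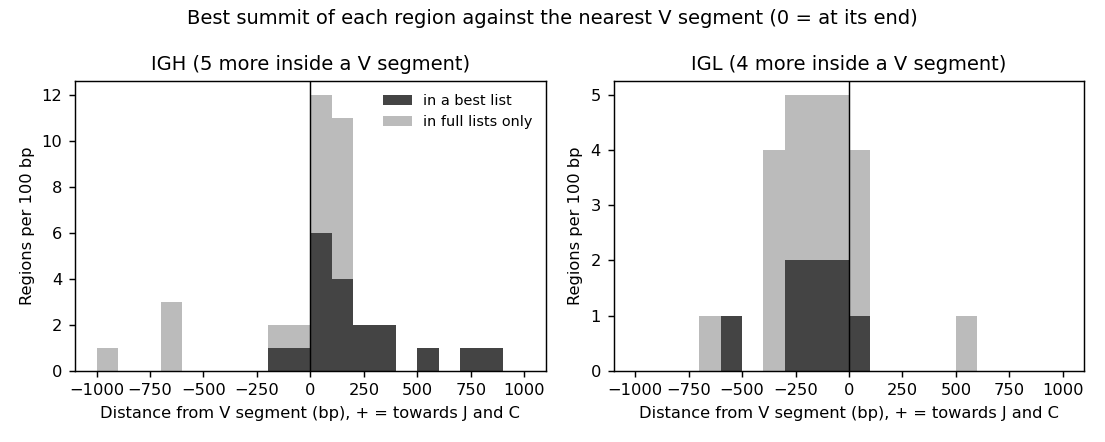
Number of regions per 100 bp by distance of the best summit from the nearest V segment, for IGH and IGL; positive distances (bp) face J and C, bars are stacked for regions in a best list (dark) and in full lists only (light), and regions inside a segment (5 at IGH and 4 at IGL) or farther than 1000 bp are left out. The bars stand mostly right of 0 at IGH and left of 0 at IGL.

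By class of segment, 9 of 17 IGHVIII pseudogenes (52.9%) had a region within 1 kb, compared with 29.2% of the functional IGHV segments, 28.2% of other V pseudogenes and 9.09% of the 22 IGHVII pseudogenes. The IGHVIII class was singled out after its values were seen. All regions within 1 kb of an IGHVIII pseudogene lay on the side that faces D, J and C.

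The sorted groups were compared first, to see whether the loci were more accessible in cells with more H3K27ac. Of every 10000 best regions, the 3 windows held 6.63 and 10.1 (high), 9.76 and 10.5 (low), 12.9 and 12.1 (live). The low libraries lay within or above the range of the high ones. The group means were 8.39 ± 2.48 (SD, n = 2) for high and 10.1 ± 0.552 (SD, n = 2) for low, a difference of -1.76 that the exact two-sided permutation test did not separate from the replicate spread (p = 0.667, adjusted p = 1.0 over 8 contrasts; 2 against 2 libraries cannot go below 0.333). Without the first high library the difference was 0.0, and 1.08 with the lists then lengthened to 41828 regions, so its sign rests on that library.

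The sorted libraries were then set against the live control. The live mean was 12.5 ± 0.552 (SD, n = 2) and the mean of the 4 sorted libraries 9.27 ± 1.78 (SD, n = 4). The groups did not overlap, and the difference of -3.22 gave an exact permutation p of 0.133 (adjusted p = 0.532; the smallest possible is 0.0667). At IGL, the best lists held 6 and 12 regions (high), 11 and 11 (low), 17 and 14 (live). The groups again did not overlap, and the difference of -2.15 per 10000 reached the smallest exact permutation p, 0.0667, which adjusted over the 8 contrasts was 0.532. At IGH the counts were 11 and 13, 13 and 15, and 15 and 16, with a difference of -0.976 (exact permutation p = 0.267, adjusted p = 0.712). IGK held 1 best region in every library but the first high one, which had none. No contrast passed the adjusted threshold of 0.05, and with smallest possible p-values of 0.333 and 0.0667 none could.

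**Figure D4:**
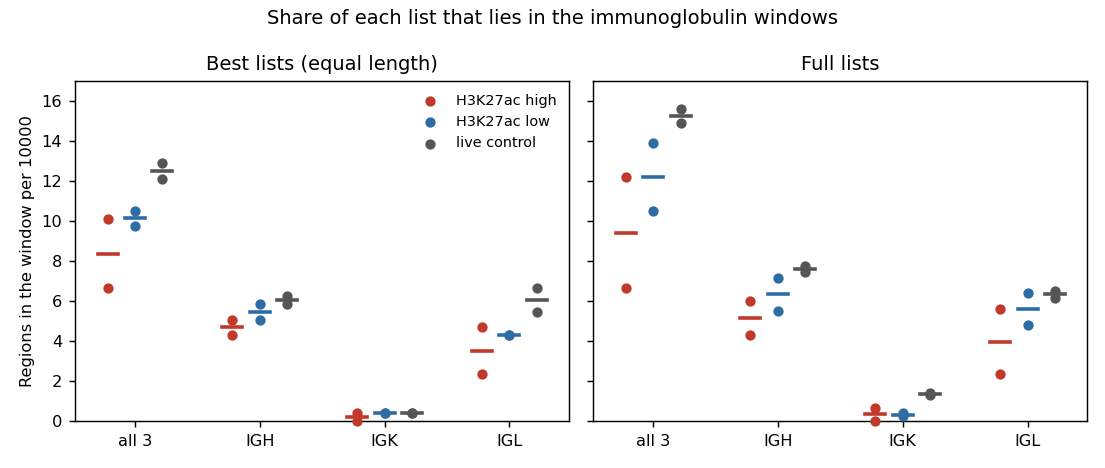
Regions in the immunoglobulin windows per 10000 of each library's list, for the best lists of equal length (left) and the full lists (right); points are libraries, bars are group means of 2 libraries, and colour is the group. In the best lists the live libraries, at 12.9 and 12.1, lie above the 4 sorted ones, which reach from 6.63 to 10.5.

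Few regions separated the sorted groups outright. A region was called found in 1 group only when it was in all best lists of that group and in none of the group it was compared with. High-only and low-only calls compare the sorted groups with each other, so such a region may also be in live best lists. Of the 49 regions of the windows in at least 1 best list, 1 was high-only (2.37% of the 41407 such regions of the genome were), 2 were low-only (3.3%), 1 was in all sorted and no live best list (1.42%), and 4 were in both live and no sorted best list (2.18%). The 11 regions in all 6 best lists are 22.4% of the 49, compared with 35.2% of the 41407. Leaving out a library loosens the rule: high-only regions numbered 6 without high 1, 3 without high 2 and 2 without low 2, and low-only regions 7 without high 2, 7 without low 1 and 6 without low 2. Sorted-only regions numbered 2 without high 2, and live-only regions 8 without live 2. The shares of all regions under these loosened rules were not computed, so these counts have no reference.

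The high-only region lies 33 bp from the functional segment IGHV4-34 (chr14:106373501-106373628). It ranked 18513 and 19466 in the high libraries, 29740 in the first low library, in which it fell past the end of the best list, and 19367 and 16590 in the live libraries, and it was absent from the second low library. The low-only regions were chr14:106664031-106664070, 1999 bp from IGHV3-65, and chr22:22856383-22856514, 95 bp from the pseudogene IGLV2-5. The former had ranks 20981 and 23854 (low) and 38551 (second high library), and was absent elsewhere. The latter had ranks 20698 and 16540 (low), 35973 (second high library), 23164 and 19773 (live).

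A pair of neighbouring calls sits beside IGHVIII-47-1. The sorted-only region (chr14:106530607-106530701), 507 bp from it, had ranks 19411 and 6654 (high), 10397 and 7529 (low). The live-only region (chr14:106530956-106530965), 168 bp from the same pseudogene, ranked 6502 and 4942 in the live libraries. The facing ends of these neighbouring regions lie just over the 250 bp chaining limit apart, so they count as separate regions. With summits chained under 1000 bp the sorted-only count was 0. The remaining live-only regions lay 116 bp from IGHV3-72 (live ranks 20118 and 14162), 284 bp from IGLV1-47 (21968 and 15983) and inside the pseudogene IGLV7-35 (23044 and 18107). Each of these was also in the full lists of the second high and the second low library, with ranks from 28580 to 41822.

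Rank order within the best lists was compared next. Of the 12 regions in all 4 sorted best lists, 1 had both high ranks ahead of both low ranks (24.7% of 16320 regions did) and 5 had both low ranks ahead of both high ranks (23.6%). Of the 11 in all 6 best lists, 5 had both live ranks ahead of all sorted ranks (15.4% of 14593) and 0 the reverse (15.9%). The live comparison was added after the data were seen. High-ahead counts were 4 without high 1, 3 without high 2 and 2 without low 1, and low-ahead counts 10 without high 1 and 8 without high 2. Sorted-ahead counts were 3 without high 1 and 1 without live 2. For these counts too, the shares of all regions were not computed.

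Over the full lists, 60 of the 150 regions (40.0%) were found in live lists alone, compared with 32.0% of all regions, and 17 (11.3%) in sorted lists alone, compared with 12.8%. The live lists are the longest, and the part of list length in these shares was not tested. Regions found in a single library were 37.3% of the 150 and 34.7% of all.

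The T cell receptor loci, built from V, D and J segments in the same way but not rearranged or expressed in the B lineage as a rule, were the reference for the density of best regions. From the first high to the second live library, the 3 Ig windows held 4.36, 6.67, 6.41, 6.92, 8.46 and 7.95 best regions per Mb, and the spans of the T cell receptor segments (1.57 Mb) held 11.4, 12.1, 12.1, 10.8, 12.1 and 15.3. The Ig value was lower in 6 of 6 libraries, by 5.5 ± 1.55 per Mb (SD, n = 6; exact two-sided sign-flip permutation test, p = 0.0312, the smallest it can give). The difference rested on IGK: with the IGH and IGL windows only, at 7.08, 10.4, 10.0, 10.8, 13.3 and 12.5 per Mb, it was -1.6 and the exact p was 0.125. Over all chromosomes the best lists held 8.68 regions per Mb. In the best lists of 12813 regions the difference with all windows was -1.12 (exact p = 0.125).

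Other genes in the windows were mostly not marked by a region at their ends. Of 7 protein-coding genes, ZNF280B, a zinc finger gene between lambda V segments, had a region within 1 kb (chr22:22508761-22508858) in 5 best lists. It was absent from the first high library and ranked 21686 in the second; its ranks were 18353 and 21727 (low), 12584 and 20402 (live). PRAME had one (chr22:22559245-22559272) that ranked 29318 and 54991 in the live lists and was absent from all sorted lists. Of 25 lncRNA genes, 5 had a region within 1 kb of an end in some list and 2 had one in a best list. These were LOC102724653, with a region in 4 best lists that also lies 73 bp from IGLV8-61, and LOC124903399, with a region 945 bp from the gene in 1 best list. The region in the LOC124903399 promoter, 238 bp from the gene, was in 5 full lists and in no best list. FAM30A, a lncRNA gene beside the D segments, lay 55741 bp from the nearest region.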

How the data were processed

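Accessibility summits of 6 GM12878 libraries were used as deposited. Per the submitters' processing notes, Bowtie2, Picard and MACS2 were used, and hg38 and hg19 are named; contigs that exist only in GRCh38 are in all lists, so positions are taken as hg38. Each list was called per library. Its score was taken as the -log10 p- or q-value of the deposited summit lists; it is the authors' own value and was used only to rank within a list. The lists come with mapping filters and depth not given in the sources used here.

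Summits were chained under 250 bp, and regions ranked per library, ties in random order with a fixed seed. Shares were compared by exact permutation over libraries (Benjamini-Hochberg over 8 contrasts) and densities by an exact sign-flip test, in Python 3.11.15 with numpy 2.4.6 and pandas 2.3.3. Chaining, ranking and the high-only and low-only calls were first checked on simulated lists of nearly equal length. That check did not cover the permutation and sign-flip tests or lists as unequal as these. Segments and genes came from a RefSeq table (GRCh38.p14). Regions were named by rule: per locus up to 5 in all 6 best lists by worst rank, all found in 1 group only, and the best ranked of each zone. Some zone regions in no best list are not described. They lie between the kappa J and V segments, in the IGH constant span and in the rest of the IGH and IGL windows. IGHV4-80, ZNF280B, PRAME and the lncRNA regions are additions. The members and lists were chosen with earlier results of these data known. No libraries shared a summit with the same base and score. Alternatives were list length, chaining distance, segment spans, single summits, a replicate block and leaving out each library.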

Additional observations from a re-analysis of the deposited data

Results flagged for a closer look

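Within the 4 sorted libraries, 15 values were checked for a library far from the others, by its gap to the nearest divided by the range, against the critical value of the Dixon test at the 95% level; chance flags about 1 in 20 groups. The share of best regions at IGK stood out at a ratio of 1.0, with 0.0 per 10000 in the first H3K27ac-high library and 0.39 in the other 3, a difference of a single region. The IGL share stood out at 0.833, with 2.34 per 10000 in the same library against 4.29, 4.29 and 4.68. The log2 rank of the region near IGHVIII-76-1 stood out at 0.854, with rank 16750 in the same library against 4823 to 5784. The log2 rank of the region near IGLV8-61 stood out at 0.904, with rank 10125 in the second H3K27ac-high library against 4954 to 5307.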

How the results depend on the processing

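Of the shares of sorted minus live libraries, 51 of 52 alternative values kept their sign, and at IGK the value was 0.0 without the first high library. The smallest exact permutation p that any of these tests can give is 0.0667, so none could pass 0.05. Leaving out 1 library gave -3.64 to -2.34 for all windows, -1.24 to -0.715 at IGH, -0.13 to 0.0 at IGK and -2.73 to -1.56 at IGL. For high minus low, 39 of 48 kept their sign. Leaving out 1 library gave -3.51 to 0.0 for all windows, -1.17 to -0.39 at IGH, -0.39 to 0.0 at IGK and -1.95 to 0.39 at IGL, and without high 1 and with longer lists 1.08, 0.239, 0.12 and 0.717. The IGK value was 0.0 in lists of 12813 regions and 0.00946 in full lists, where the cause was not tested. With the replicate block, high minus low was -1.76 (exact permutation p = 0.5) and sorted minus live -3.22 (exact permutation p = 0.111). These are the smallest p-values the blocked tests can give, so no contrast could pass 0.05 and the p-values decide nothing. The region counts were not recomputed under the replicate block. In the regions of all best lists, same-numbered replicates did not deviate together (correlations 0.0682, 0.0105 and -0.00428 over 14593 regions). Such correlations cannot decide whether same-numbered replicates were prepared together, which was not tested.

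The density difference was -1.12 (exact p = 0.125) in lists of 12813 regions, -1.6 (exact p = 0.125) with IGH and IGL only, an alternative added after the data were seen, and -5.88 to -5.14 without each library (exact p = 0.0625, the smallest 5 libraries allow); in full lists it was -13.6, and under that and the 3 other alternatives p stayed 0.0312. In lists of 12813 regions the counts were 0 high-only, 1 low-only, 0 sorted-only, 2 low-ahead, 3 live-ahead and 6 in all best lists; in full lists 0 high-only, 6 low-only, 19 live-only and 2 high-ahead. Chaining under 100 bp gave 2 sorted-only regions and under 1000 bp 0. Leaving out 1 library gave 1 to 6 high-only, 3 to 7 low-only, 1 to 2 sorted-only, 4 to 8 live-only, 1 to 4 high-ahead, 6 to 10 low-ahead, 0 to 3 sorted-ahead, 5 to 7 live-ahead and 11 to 15 regions in all best lists. The shares of all regions under these alternatives were not computed, so the counts cannot be set against the genome. The lists give no read depth, so a region missing from a list may lie below its threshold.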
